A study of Mus musculus with 2 samples.

Results

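A set of 10 genes of mammalian iron traffic was followed in captured mouse cortex. Fth1 and Ftl1 store iron, and Tfrc, Trf and Slc11a2 serve its uptake. Hfe, whose product binds the transferrin receptor, was listed with the uptake genes. Slc40a1 and Cp serve iron export, and Aco1 and Ireb2 encode the iron regulatory proteins. The 10 genes were listed by their known function in iron handling, and all were found among 21474 protein-coding genes. The material was layer 5 of the cerebral cortex, the deep layer of large projection neurons, from a wild type male C57Bl6 mouse (strain B6NCrl in the source label) aged 8 months. Areas of 8000 square microns, each recorded as 50 cells, were cut out by laser, and their RNA was made into 2 Smart-seq libraries, which start from very small amounts of RNA, and spike-ins were included. Although numbered as separate biological replicates (1 and 2), the libraries share 1 donor in their labels. They were taken as areas of 1 animal, and each SD is the spread between those areas. There was 1 group with no treatment and no contrast, so no p-value was computed. Replicate 1 held 26059117 expected counts, which are estimated reads per gene, and replicate 2 held 28276843. Spike-ins took 7.19% and 7.94% of them. Levels are given in TPM, an abundance that divides by transcript length and so allows genes to be compared. The layer 5 markers Fezf2 (18.6 and 24.5 TPM) and Pcp4 (2922 and 3599 TPM) were present in both areas.

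Cells take up iron that transferrin carries in the blood or in the fluid between cells, hold it inside ferritin shells, and release it through ferroportin. The iron regulatory proteins, encoded by Aco1 and Ireb2, bind a short RNA hairpin, the iron-responsive element, when iron is scarce. In a 5′ UTR the bound hairpin blocks translation, as in ferritin and ferroportin mRNA, and in the 3′ UTR of the transferrin receptor mRNA it protects the message from decay. Much of this control therefore acts on protein made per message, which RNA levels do not measure. In the brain, oligodendrocytes are known as cells rich in iron and transferrin, and astrocytes carry an anchored form of ceruloplasmin.

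The hairpins were looked for in the reference transcripts. They are the sequence feature through which the ferritin, ferroportin and transferrin receptor messages are known to be regulated. The search took the motif CNNNNNCAGTGN on the sense strand with 5 paired bases between the bulged C and the loop and at least 3 of 5 pairs below, G-U pairs allowed. Capitals mark the loop, and coordinates are mm10. Each element lies within an exon of the named transcript, in the 5′ UTR for the genes listed first and in the 3′ UTR for Tfrc and Slc11a2.
Fth1-201, 5′ UTR, exon 1, chr19:9982733-9982759, plus strand: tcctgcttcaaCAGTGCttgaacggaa
Ftl1-201, 5′ UTR, exon 1, chr7:45459780-45459806, minus strand: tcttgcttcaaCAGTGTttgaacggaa
Slc40a1-201, 5′ UTR, exon 1, chr1:45925466-45925492, minus strand: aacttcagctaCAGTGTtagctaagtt
Tfrc-201, 3′ UTR, exon 19, chr16:32631220-32631246, plus strand: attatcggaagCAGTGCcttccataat
Tfrc-201, 3′ UTR, exon 19, chr16:32631599-32631625, plus strand: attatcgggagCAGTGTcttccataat
Tfrc-201, 3′ UTR, exon 19, chr16:32631664-32631690, plus strand: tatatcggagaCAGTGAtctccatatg
Tfrc-201, 3′ UTR, exon 19, chr16:32631711-32631737, plus strand: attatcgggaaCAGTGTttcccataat
Slc11a2-205, 3′ UTR, exon 16, chr15:100395153-100395180, minus strand: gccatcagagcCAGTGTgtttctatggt
The ferritin elements differ at 2 of 27 positions, counted from 1 at the 5′ end: C3T and C17T, with the base of Fth1 first and that of Ftl1 second. The element of Slc11a2-205 is 28 bases long because 1 base of its 3′ arm stays unpaired. Slc11a2-201, which ends in another 3′ exon, held no match, nor did any transcript of Trf, Hfe, Cp, Aco1 or Ireb2. Counting elements without such an unpaired base, 13 of 58447 protein-coding transcripts (0.0222%) held a match within their first 250 bases, and of 27150 transcripts 82 (0.302%) held one within their last 2000 bases. By gene, 10 of 21877 had a match in a 5′ UTR and 36 in a 3′ UTR, and Tfrc was the 1 gene with 3 or more in its 3′ UTR. A match is a description of the sequence and does not show that a protein binds there.

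**Figure D1:**
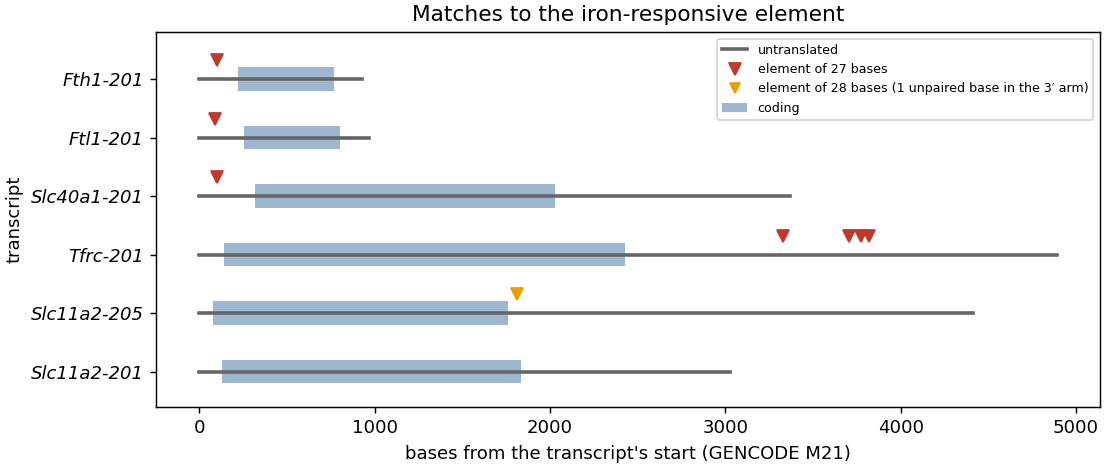
Positions of the hairpin matches along 6 transcripts, in bases from the transcript's start, with coding parts as blue bars, untranslated parts as grey lines and matches as triangles. The matches of Fth1, Ftl1 and Slc40a1 precede the coding part, the 4 of Tfrc-201 follow it, and Slc11a2-205 has 1 where Slc11a2-201 has none.

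Ferritin transcripts made up nearly all the RNA of the 10 genes. Fth1, the heavy chain whose ferroxidase centre oxidises iron on entry (ENSMUSG00000024661.6, chromosome 19 from 9980598 to 9985098), had 4927 TPM in replicate 1 and 5044 TPM in replicate 2. It ranked at place 11 of all protein-coding genes by mean TPM, mitochondrially encoded ones included. Ftl1, the light chain that helps the iron core to form (ENSMUSG00000050708.10, chromosome 7 from 45457944 to 45459884), had 660.0 and 785 TPM, a mean of 722 ± 88.2 (SD, n = 2), and ranked at place 123. The heavy chain stood 7.47-fold above the light chain in replicate 1 and 6.43-fold in replicate 2, a gap far larger than the difference between the areas for either gene. Together they took 98.6% and 96.3% of the summed TPM of the 10 genes, and 0.359% and 0.358% of all expected counts. On the log2(TPM + 1) scale the ratio of replicate 1 over replicate 2 was -0.03 for Fth1, a value whose sign turns with the scaling, and -0.25 for Ftl1. The Ftl1 counts per library total were 1.14-fold higher in replicate 2, with a 95% interval of 1.11 to 1.17 (exact Clopper-Pearson, counting error only, as for all intervals of this kind).

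Both ferritin genes have processed copies elsewhere in the genome that could share reads with them. No other gene matched Fth1 at 95% identity or more over 300 bases. Below that limit Gm6977, a processed pseudogene, matched it at 90.5% over 524 bases and held 70.22 and 91.75 counts, against 81327 and 86100.2 for Fth1. For Ftl1, 5 genes passed the limit, and 4 of them held 356 and 300.3 counts together, which is 2.92% and 1.99% of the Ftl1 count. The closest, Ftl1-ps1, matched at 99.6% over 910 bases with 262.83 and 243.71 counts. How the reads were divided between Ftl1 and these copies is uncertain, but with the TPM of all copies added Ftl1 reached 684 and 804 TPM. A miRNA gene on the same strand, Gm22133, overlaps Ftl1 and was listed with 126.54 and 188.65 counts.

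The plot of levels by library shows a range of more than 3 powers of 10 between Fth1 and the exporters. In order of mean TPM the genes ran Fth1, Ftl1, Trf, Tfrc, Ireb2, Aco1, Slc11a2, Slc40a1, Hfe and Cp. The areas' values did not overlap between Fth1 and Ftl1, Ftl1 and Trf, or Tfrc and Ireb2. They overlapped for the other 6 neighbouring pairs, so the order within each of these pairs, Trf against Tfrc among them, was not settled by these libraries. By TPM values alone, Ireb2, Aco1, Slc11a2 and Slc40a1 each lay above Cp without overlap of the areas, and Ireb2 and Aco1 also lay above Slc40a1 and Hfe. The deposited TPM intervals of several of these genes overlap, so this order is not settled for all of them. In replicate 1 the interval was 2.87 to 5.48 for Slc40a1 and 1.53 to 3.28 for Cp. In replicate 2 it was 5.08 to 6.83 for Aco1 and 3.14 to 6.17 for Slc40a1. The intervals need not contain the TPM ranked here. Slc11a2, Slc40a1 and Cp lay below theirs in both areas, and Fth1 and Ftl1 lay above theirs. At least 1 TPM was reached in both areas by 9 of the 10 genes, Hfe being the exception, against 11050 of 21474 protein-coding genes (51.5%).

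**Figure D2:**
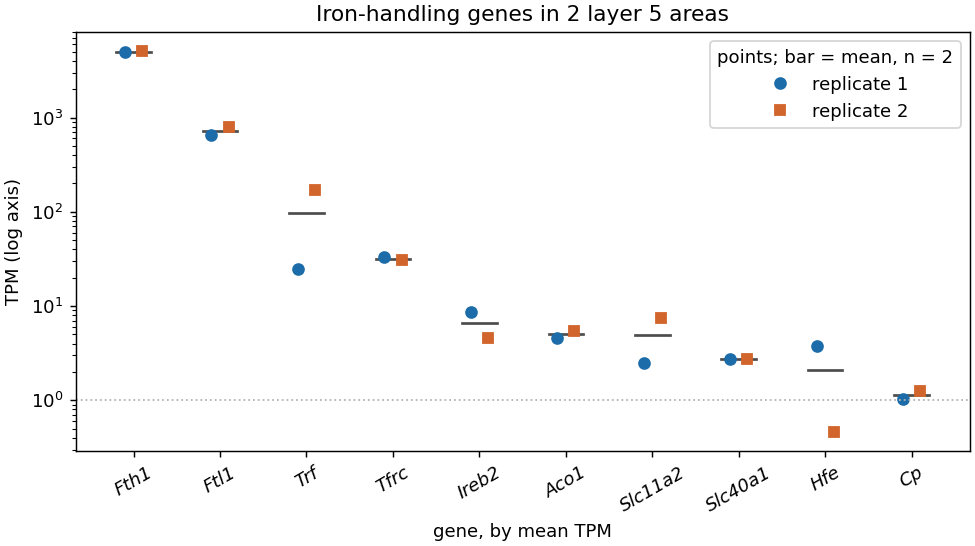
TPM of the 10 genes on a log axis in replicate 1 and replicate 2 (points), with the mean as a bar, ordered by mean, and a dotted line at 1 TPM. The ferritin genes lie at 660.0 TPM and above, Slc40a1 and Cp stay under 3 TPM, and the points of Trf and Hfe lie farthest apart.

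Among the uptake genes, the receptor differed far less between the areas than its ligand. Tfrc, the transferrin receptor that takes up iron-loaded transferrin by endocytosis (ENSMUSG00000022797.11, chromosome 16 from 32608920 to 32632794), had 33.2 TPM in replicate 1 and 30.6 TPM in replicate 2, a mean of 31.9 ± 1.85 (SD, n = 2). Per library total the Tfrc count was 1.19-fold higher in replicate 1 (95% interval 1.13 to 1.26). That direction holds for the gene as a whole. Its main coding transcript, Tfrc-201, was higher in replicate 2, with 15.9 and 18.0 TPM. Trf, transferrin itself (ENSMUSG00000032554.11, chromosome 9 from 103204001 to 103230444), had 24.7 TPM from 601 counts in replicate 1 and 171 TPM from 4725 counts in replicate 2. Per library total its count was 7.25-fold higher in replicate 2 (95% interval 6.65 to 7.90), and its log2 ratio of replicate 1 over replicate 2 was -2.74. Transferrin RNA thus lay below that of its receptor in replicate 1, at 0.742 of it, and 5.57-fold above it in replicate 2. In bulk RNA of this kind, fewer cells of a type and less RNA per cell cannot be told apart.

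Markers of oligodendrocytes, the myelin-forming cells, moved in the same direction as Trf. All 10 of the list were higher in replicate 2, 7 of them by more than 2-fold, and none was at 0. They summed to 578 and 1019 TPM. Mbp, a myelin sheath protein, had 360.4 and 498 TPM, and Mobp, another myelin protein, had 83.9 and 129.9 TPM. The log2 ratios of the list ran from -2.42 to -0.46 with a median of -1.39, so the ratio of Trf lay beyond those of all 10. The part of oligodendrocyte RNA in the Trf difference was not tested. Choroid plexus epithelium also makes transferrin, and 4 of its 6 markers, Ttr, Kl, Kcne2 and Foxj1, had 0 counts in both libraries. A count of 0 here leaves room for 0.115 CPM, library-scaled counts, in replicate 1 and 0.106 CPM in the other. The sum of that list was 2.18 and 0.230 TPM, all of it from Folr1 (23.00 and 1.00 counts) and Clic6 (44.00 and 15.00 counts), and the part of choroid plexus RNA in the Trf difference was not tested. Markers of red blood cells, mostly haemoglobins, summed to 16.0 and 586 TPM. Of these 5 markers, 4 were higher in replicate 2, while Alas2 had 1.48 TPM in replicate 1 and 0.610 TPM in replicate 2. The part of red blood cell RNA in the Trf difference was not tested either. Over the 2 libraries the genes nearest to Trf, by Euclidean distance of log2(TPM + 1), were Apod at 17.1 and 139 TPM (distance 0.585), Dkkl1 at 34.3 and 115 TPM (0.730) and Tmem91 at 43.0 and 127 TPM (0.885).

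Slc11a2 and Hfe also differed by more than 2-fold, in opposite directions. Slc11a2, the transporter that moves ferrous iron out of endosomes (also called DMT1, ENSMUSG00000023030.12, chromosome 15 from 100387898 to 100425072), had 2.47 TPM from 199 counts in replicate 1 and 7.43 TPM from 538 counts in replicate 2. Its count per library total was 2.49-fold higher in replicate 2 (95% interval 2.11 to 2.95). Its log2 ratio of -1.28 lay inside the range of the oligodendrocyte markers, and neuron markers were also higher in replicate 2 in TPM (sums of 9631 and 11343 TPM, log2 ratios from -0.99 to -0.02, none beyond 2-fold). For Stmn2 and Camk2a of that list the direction turned with the unit, since their counts per library total were 1.02-fold higher in replicate 1. The part of either cell class in the Slc11a2 difference was not tested. Tfrc exceeded Slc11a2 13.5-fold in replicate 1 and 4.12-fold in replicate 2. Hfe, an MHC class I-like protein that binds the transferrin receptor and is mutated in hereditary haemochromatosis (ENSMUSG00000006611.10, chromosome 13 from 23702034 to 23710854), had 3.75 TPM from 101 counts in replicate 1 and 0.460 TPM from 17 counts in replicate 2. It was 6.45-fold higher in replicate 1, with a wide 95% interval of 3.83 to 11.5. Microglial markers moved with Hfe: all 11 were more than 2-fold higher in replicate 1, with sums of 381 and 116 TPM, none at 0 and log2 ratios from 1.01 to 3.29. The ratio of Hfe, 1.70, lay inside that range. Of 10 endothelial markers, 5 were higher and 5 lower in replicate 1, and 3 passed 2-fold, all higher in replicate 1. The list had none at 0, sums of 162 and 109 TPM and log2 ratios from -0.76 to 1.57. The part of microglial or endothelial RNA in the Hfe difference was not tested.

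The exporters were low and close between the areas. Slc40a1, ferroportin, the known cellular iron exporter (ENSMUSG00000025993.6, chromosome 1 from 45908068 to 45926523), had 2.73 TPM from 202 counts and 2.75 TPM from 194 counts. Cp, ceruloplasmin, the copper ferroxidase that oxidises iron as it leaves (ENSMUSG00000003617.12, chromosome 3 from 19957054 to 20009145), had 1.03 TPM from 78.00 counts and 1.24 TPM from 66.01 counts. Neither ratio of counts was distinguishable from 1 at this depth: the 95% interval for replicate 1 over replicate 2 was 0.923 to 1.38 for Slc40a1 and 0.912 to 1.81 for Cp. Fth1 exceeded Slc40a1 1805-fold and 1834-fold in TPM, a ratio that depends on the estimate used for Slc40a1. The levels of both exporters depend on the estimate: with the deposited posterior mean TPM in place of TPM, the mean of Slc40a1 was 4.29 in place of 2.74 and that of Cp 2.29 in place of 1.14. Hps3 overlaps Cp on the opposite strand with 449 and 529.99 counts, and the strand setting of the counting was not given. Astrocyte markers, the class known for anchored ceruloplasmin, summed to 1339.7 and 1499 TPM, and none of the 10 differed by more than 2-fold.

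Transcripts of both iron regulatory proteins were present at single-digit TPM, and the ratio of their RNA levels differed between the areas. Aco1, which is a cytosolic aconitase when it holds an iron-sulfur cluster and binds RNA when it does not (ENSMUSG00000028405.9, chromosome 4 from 40143081 to 40198338), had 4.58 and 5.45 TPM. Ireb2, which is degraded when iron is plentiful (ENSMUSG00000032293.7, chromosome 9 from 54863789 to 54912530), had 8.74 and 4.57 TPM. Ireb2 lay 1.91-fold above Aco1 in replicate 1 and at 0.839 of it in replicate 2. By counts per library total, Ireb2 was 2.01-fold higher in replicate 1 (95% interval 1.81 to 2.23) and Aco1 1.53-fold higher in replicate 2 (1.31 to 1.79). On the log2(TPM + 1) scale neither passed 2-fold, with ratios of 0.81 for Ireb2 and -0.21 for Aco1. The TPM of Aco1 in replicate 1 rests in part on a short transcript: 20.28 counts assigned to Aco1-204, 714 bases long, gave 1.53 of its 4.58 TPM.

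In all, 3 of the 10 genes differed by more than 2-fold between the areas on the log2(TPM + 1) scale, against 1218 of the 11841 protein-coding genes that averaged at least 1 TPM (10.3%). Hfe was the 1 gene higher in replicate 1, where 4.98% of those genes were, and Trf and Slc11a2 were the 2 higher in replicate 2, where 5.30% were. Low genes passed more often: 18.0% of genes with a mean from 1 to under 10 TPM passed 2-fold, as did 2 of the 6 iron genes in that range. At 10 TPM or more 3.88% did, and so did Trf among 4 iron genes. The median log2 ratio of the 10 genes was -0.09, and that of all 11841 was -0.05. By the roles assigned here all 3 were listed under uptake, Hfe as a gene whose product binds the transferrin receptor. That grouping depends on the assignment, and Hfe moved opposite to Trf and Slc11a2. No gene listed under storage, export or regulation passed. With 2 to 4 genes per role and 1 library per side, a difference between roles was not tested.

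**Figure D3:**
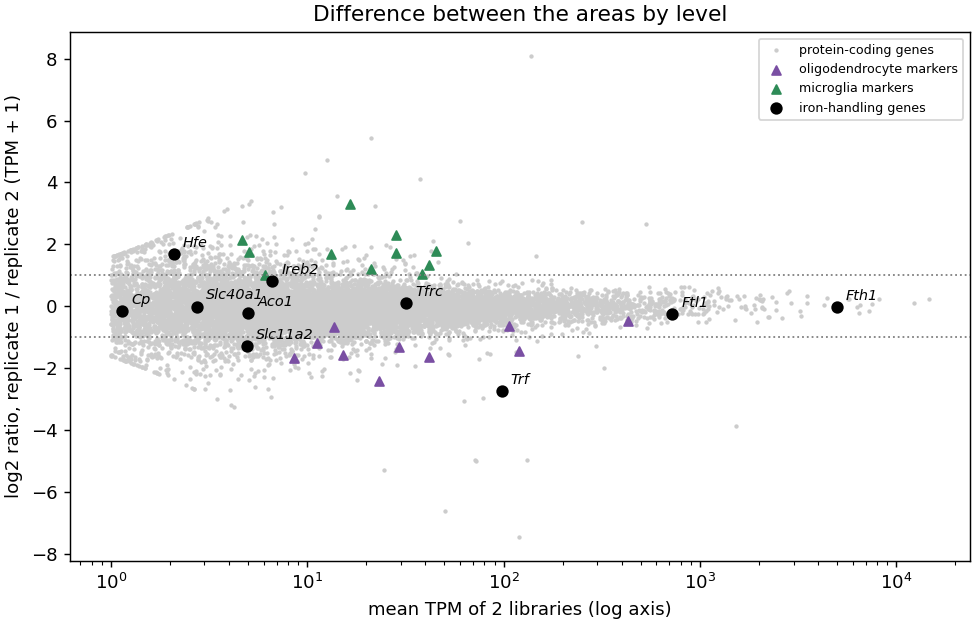
Log2 ratio of replicate 1 over replicate 2 against mean TPM (log axis) for the 10 iron genes (black), markers of oligodendrocytes and microglia (triangles) and protein-coding genes that averaged at least 1 TPM (grey), with dotted lines at 2-fold. Trf and Slc11a2 lie below the lower line and Hfe above the upper line, and the other 7 genes lie between them.

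The transcript tables listed 62 transcripts of the 10 genes, 27 of them with 0 counts in both libraries, and gave each a percent of its gene's TPM. Fth1 and Ireb2 had 1 listed transcript each, so no Fth1 fragments could be examined. Ftl1-201 took 94.07% and 96.79% of Ftl1. The Ftl1 level therefore rests almost wholly on the transcript named with its 5′ hairpin above. For Fth1 the share was fixed, since only Fth1-201 was listed, and it does not show which Fth1 transcript the reads came from. Fth1-201 is 866 bases long in the tables and 929 bases in the annotation release from which its hairpin was read.

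For the uptake genes the listed transcripts differ in whether they encode protein or carry a hairpin. Tfrc-201, the main coding transcript, took 47.79% and 58.83%, and Tfrc-204, annotated as a retained intron and holding the same 4 elements, took 50.62% and 29.35%. As shares of expected counts, which are not divided by length, Tfrc-201 held 56.8% and 73.3%. The higher Tfrc count in replicate 1 lay in Tfrc-204, with 1241.24 and 685.77 counts, while Tfrc-201 had 1637.74 and 1921.37 counts. Of Trf, the main coding transcript Trf-201 took 36.51% and 40.35%, and Trf-209, a retained intron model of 433 bases, took 57.89% and 45.10%. That large share belongs to the division by its short length: by counts Trf-209 held 17.1% and 12.1% and Trf-201 79.7% and 80.2%. Both were higher in replicate 2: Trf-201 had 9.01 and 68.9 TPM and Trf-209 14.3 and 77.0 TPM. Of Slc11a2, the form with the hairpin, Slc11a2-205, was nearly even, with 134.79 and 167.37 counts and 1.45 and 1.74 TPM. The form without it, Slc11a2-201, was assigned 64.21 and 370.63 counts. The share of the hairpin form was 58.73% in replicate 1 and 23.44% in replicate 2, so the higher Slc11a2 level in replicate 2 lay in the form without the hairpin. Hfe was assigned to Hfe-203 (62.90%), Hfe-204 (26.53%) and Hfe-202 (10.57%) in replicate 1 and wholly to Hfe-202 in replicate 2, where the gene had only 17 counts.

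Ceruloplasmin has a secreted form and a form held on the membrane by a glycosylphosphatidylinositol anchor, which differ in their last exons. The 4 transcripts whose encoded protein ended in a hydrophobic stretch, as an anchor signal does, were taken as the anchored class, and 2 as secreted. The anchored class held 59.8 counts in replicate 1 and 9.51 in replicate 2, and the secreted class 14.9 and 49.7. As a percent of the gene's TPM, the anchored class took 62.2% and 8.63%, a mean of 35.4% ± 37.9 (SD, n = 2), and the secreted class 17.2% and 45.8%. Of these 2 classes, the anchored one was thus assigned the larger share in replicate 1 and the secreted one in replicate 2. Cp-204 was the main anchored transcript, with 54.16% in replicate 1 and 0 in replicate 2, and Cp-202 the main secreted one, with 17.18% and 45.81%. With the posterior mean estimate the shares came closer, at 27.8% and 12.2% for the anchored class and 9.93% and 22.4% for the secreted class. The retained intron models then took 34.7% and 21.7%, so neither class was the largest in replicate 1. Deposited TPM intervals in replicate 1 overlapped, at 0.0216 to 0.526 for Cp-204 and 0.0314 to 0.283 for Cp-202. A change of the main form between the areas is therefore not settled. Only 78.00 and 66.01 counts were divided among 16 listed transcripts, and the rest of the gene was assigned to fragments such as Cp-206 (20.57% in replicate 1), Cp-212 (33.17% in replicate 2) and Cp-213 (12.39% in replicate 2). Slc40a1-201 took 70.46% and 81.70% of ferroportin. The remainder was Slc40a1-208 in replicate 1 (29.54%) and Slc40a1-202 in replicate 2 (18.30%). All 3 hold the same hairpin sequence, but Slc40a1-208 and Slc40a1-202 are annotated as retained introns without a coding sequence, and so have no 5′ UTR. Aco1-201 took 66.53% and 96.94% of Aco1.

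**Figure D4:**
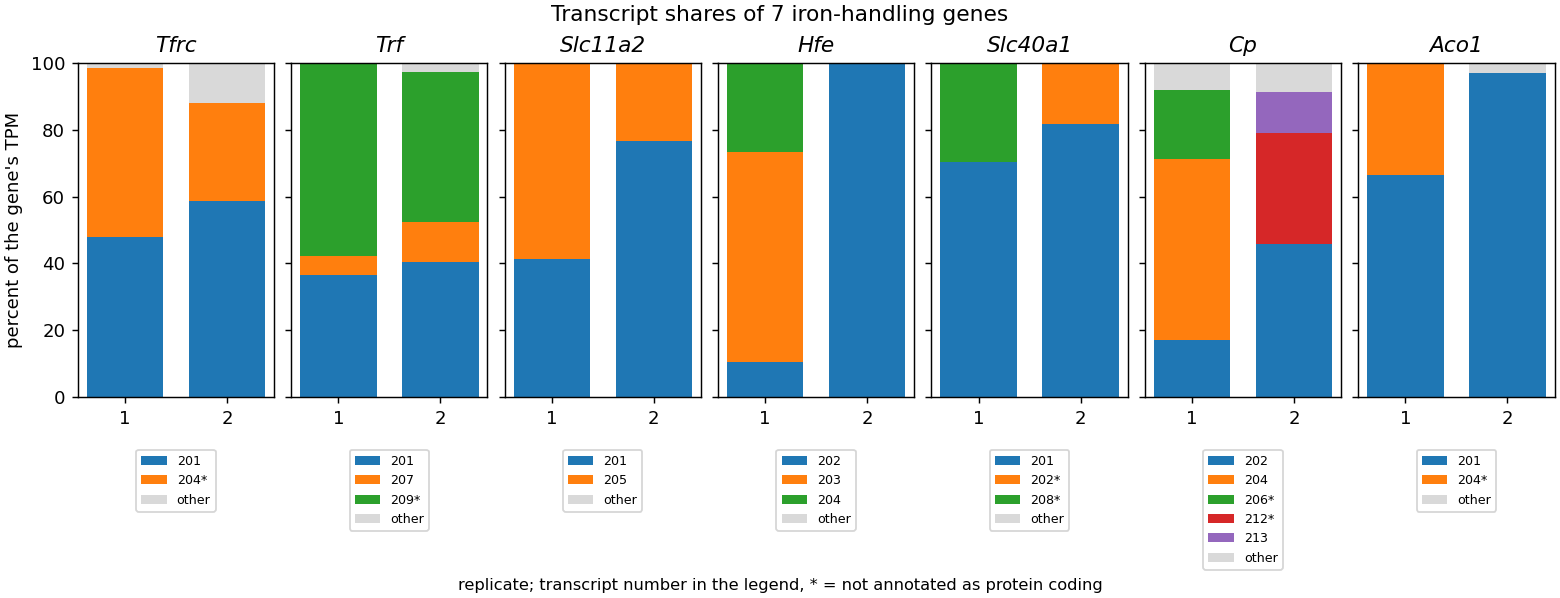
Percent of the gene's TPM taken by each transcript at 10% or more in either library, as deposited, with the rest in grey and an asterisk for transcripts not annotated as protein coding. The hairpin form Slc11a2-205 fills 58.73% of replicate 1 and 23.44% of replicate 2, and the anchored Cp-204 fills 54.16% and 0.

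Of 55 other genes of iron handling, 37 reached 1 TPM in both areas, against 51.5% of protein-coding genes, and 11 had 0 counts in both. Of the 38 that averaged at least 1 TPM, 4 differed by more than 2-fold, 2 in each direction, a share close to the 10.3% of all such genes. The median log2 ratio of those 38 was 0.04. Among 12 other uptake genes only 3 reached 1 TPM in both areas. They were Slc22a17, a receptor for lipocalin 2, at 127 and 157 TPM, the ferrireductase Steap2 at 4.98 and 2.22 TPM, and the metal transporter Slc39a14, named after its values were seen, at 1.71 and 2.12 TPM. The second transferrin receptor gene Tfr2 had 3.09 TPM in replicate 1 but 0.890 TPM in replicate 2. Tfr2 was 3.64-fold higher in replicate 1 by counts (95% interval 2.69 to 5.00), in the direction of Hfe and opposite to Trf. Of 6 other storage and chaperone genes 5 were present, led by the poly(C)-binding proteins that deliver iron to ferritin: Pcbp1 had 96.0 and 89.2 TPM, Pcbp2 42.1 and 39.5 TPM, and Pcbp4 22.0 and 40.3 TPM. Ftmt, mitochondrial ferritin, had 0 counts. Of the other ferroxidases Heph had 1.08 and 0.770 TPM and Hephl1 0 counts.

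Of 7 other regulators only 2 reached 1 TPM in both areas, against 51.5% of all protein-coding genes. Fbxl5, the iron-sensing subunit of the ligase that degrades the Ireb2 product, had 35.0 and 43.2 TPM, above the RNA of Aco1 and Ireb2. Neo1, a coreceptor of hemojuvelin, had 3.32 and 4.04 TPM. Hjv, hemojuvelin itself, had 0.270 and 0.120 TPM. Hamp, the hormone hepcidin that removes ferroportin from the membrane, had 0 counts in both libraries, as did Hamp2, Bmp6 and Tmprss6. These 4 were named after their values were seen.

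Nearly all listed genes of iron use in mitochondria and in heme were detected. Both lists were chosen with earlier results of these data known. All 13 genes of mitochondrial iron and iron-sulfur cluster assembly passed 1 TPM in each area, against 51.5% of all protein-coding genes. The highest were the scaffold gene Iscu at 314 and 278 TPM, Glrx5 at 178 and 145 TPM and Isca1 at 156 and 161 TPM. Of 15 heme genes 14 passed 1 TPM in each area, against the same 51.5%. The highest were the constitutive heme oxygenase Hmox2 at 101 and 117 TPM, the heme transporter Slc48a1 at 84.6 and 97.9 TPM, and Urod, an enzyme of heme synthesis, at 89.7 and 64.2 TPM. Ppox, which acts late in heme synthesis, had 4.16 and 9.72 TPM, with a log2 ratio of -1.05. The medians of the log2 ratio were 0.17 for the mitochondrial list and -0.04 for the heme list.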

How the data were processed

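RNA was measured in 2 libraries of 1 group. Per gene and per transcript, the deposited tables hold an expected count (estimated reads, not always whole), TPM and a posterior mean TPM, and the deposited transcript tables gave a percent of the gene per transcript. The assembly is mm10 and the annotation M4, per the deposited text files. The layout is that of RSEM. The program, aligner and strand setting are not given in the sources used here.

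All 10 genes, the lists of other iron genes and the marker lists were chosen with earlier results of these data known. Symbols, positions and transcript sequences came from GENCODE M21 of the same assembly, in which 42462 of 43346 gene rows and 136 of 136 list genes (1 through a synonym) were found. Of 62 transcripts, 58 were in M21 and 55 had the same length there. The libraries were checked for being copies: 14067 genes with at least 50 counts gave a chi-square of 68.5 per degree of freedom. Rows named by a number, 26248 of them, held 20.3 and 5.00 counts and were left out.

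Ratios are differences of log2(TPM + 1), which understates the change of low genes, and 2-fold means a difference beyond 1. A gene counted as detected at 1 TPM. Count folds are per library total, with Clopper-Pearson intervals at 95%, and the limit for a count of 0 is 3 counts. Reads carry no molecular identifiers, so both cover counting error only. Anchored ceruloplasmin was defined by a mean hydropathy of at least 1.0 over 20 residues at the coding end. Named were the 10 genes, up to 3 genes of highest mean TPM per list, list genes beyond 2-fold that averaged at least 5 TPM, the 3 genes nearest to Trf and to Fth1, and transcripts at 10% or more. Some genes that this rule took are left out of the text. Copies were found with BLAST 2.17.0, and edgeR 4.0.16 (R 4.3.3) gave TMM factors for CPM from expected counts rounded to whole numbers. The rest was done in Python 3.11.15 with biopython 1.88, matplotlib 3.10.9, pandas 2.3.3, numpy 2.4.6 and scipy 1.17.1. The steps were tested on simulated data. Alternatives were another pseudocount (0.1), detection at 0.5 or 5 TPM, posterior mean TPM, TPM of nuclear genes, scaling to spike-ins, CPM, isoform shares by counts, and leaving out each library. Centring on the median gene and adding the TPM of copies were chosen after seeing the data.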

Additional observations from a re-analysis of the deposited data

How the results depend on the processing

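Trf, Slc11a2 and Hfe differed by more than 2-fold in the same direction under all 7 settings of the ratio, with log2 ratios from -2.84 to -2.57, -1.55 to -1.14 and 1.61 to 2.78. Scaled to spike-ins the ratio of Trf was -2.57, and this scaling shifted the median of all genes by 0.159 on the log2 scale. The sign held for 7 of the 10 genes. That of Fth1 (-0.05 to 0.14), Slc40a1 (-0.15 to 0.13) and Cp (-0.25 to 0.25) turned with the setting, so these have no direction. At a threshold of 5 TPM, 4 genes were detected in both areas in place of 9. By share of expected counts, mean Tfrc-201 was 65.0% and mean Trf-209 14.6%, because counts are not divided by length. No paired analysis was possible because there is 1 group. Both libraries name 1 donor, so nothing here measures variation between animals, and with 17 to 101 counts per gene and library, the transcript shares of Cp and Hfe rest on few reads.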

Other observations

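The genes nearest to Fth1 over the 2 libraries, by Euclidean distance of log2(TPM + 1), were mt-Nd4 at 4357 and 4249.8 TPM (distance 0.304), mt-Co3 at 4893 and 4036 TPM (0.322) and the cyclophilin gene Ppia at 6148 and 5262 TPM (0.325). At this abundance few genes are close, so the distance describes level more than pattern.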
